A study of Mus musculus with 40 samples.

Results

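Fatty acid synthesis, elongation and desaturation was followed through 10 genes in the whole pancreas of 40 adult male mice, each hybridised to 1 Illumina beadchip array (MouseRef-8 v2.0). The genes were chosen by symbol: the desaturases Fads1, Fads2, Scd1 and Scd2, the elongases Elovl5 and Elovl6, and the synthesis enzymes Acaca, Fasn, Acly and Me1. They are 10 of the 16593 genes named on the array and had 11 of its 25697 probes, 1 each except Me1 with 2. Of the 10, 9 passed the filter on low signal and were tested. Groups are named by the diet of the dam and then by the diet after weaning, and HF_HF, HF_LF, LF_HF and LF_LF held 10 animals each. HF was a diet rich in fat and low in carbohydrate, LF the reverse, and coconut oil was the main fat of both. All animals were C57BL/6J males, and the dams ate their diet from before mating until weaning, so that exposure in the womb and through milk cannot be told apart. The 40 animals came from 12 cages, 6 per dam diet, and 5 of these cages held mice of both post-weaning diets. The labels do not say whether a cage number is that of birth, and since the mice of a group share cages, p-values measure the spread between animals that are not all independent.

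Fatty acids are built in the cytosol from acetyl-CoA. Acly cleaves citrate to supply it, Acaca turns it into malonyl-CoA, Fasn joins the units into palmitate, and Me1 is one of the enzymes that supply the NADPH this requires. Elovl6 then lengthens saturated chains and Scd1 and Scd2 put in the first double bond to give oleate and palmitoleate, whereas Fads1 and Fads2, the delta-5 and delta-6 desaturases, act with Elovl5 on chains from dietary linoleate and alpha-linolenate to make arachidonate and other polyunsaturated fatty acids. The transcription factors SREBP-1c, encoded by Srebf1, and ChREBP, encoded by Mlxipl, drive these genes in liver and fat when carbohydrate is plentiful. Adipocytes express Scd1 and the synthesis enzymes strongly, and fat tissue lies in and around the mouse pancreas.

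The RefSeq promoter table (GRCm38.p6) held 8 start sites for 7 of the 10 genes. The 250 bases before each were searched on both strands for 3 motifs: a sterol response element form (TCACNCCAC), the E-box CACGTG that ChREBP and USF factors can bind, and the NF-Y box CCAAT. TCACNCCAC was in 0 of the 7 genes (1.05% of all 32851 promoter windows of this length), CACGTG was in 1 (6.02% of all) and CCAAT was in 3 (33.8% of all), namely Elovl5, Fasn and the second start of Me1. The windows of Elovl5 and Fads2 are shown because these genes act in the same polyunsaturated pathway and fell on opposite sides of the fat tissue comparison. Elovl5 carries 1 CACGTG and 2 CCAAT boxes, which stand on the opposite strand and so read as their reverse complement, and Fads2 carries none of the 3. Acaca, on the same side of that comparison as Elovl5, carries none either, nor do Elovl6 and Acly. Whether the motifs go with that comparison was not tested. Capitals mark the motif matches, the strand is given after the position, and a match describes letters and not a bound site.
Elovl5 chr9:77917115-77917364 (+): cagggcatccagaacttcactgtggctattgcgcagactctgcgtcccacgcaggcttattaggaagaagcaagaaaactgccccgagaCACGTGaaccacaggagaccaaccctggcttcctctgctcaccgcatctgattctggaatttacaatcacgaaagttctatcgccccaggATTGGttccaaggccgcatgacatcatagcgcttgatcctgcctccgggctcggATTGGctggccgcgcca
Fads2 chr19:10101504-10101753 (-): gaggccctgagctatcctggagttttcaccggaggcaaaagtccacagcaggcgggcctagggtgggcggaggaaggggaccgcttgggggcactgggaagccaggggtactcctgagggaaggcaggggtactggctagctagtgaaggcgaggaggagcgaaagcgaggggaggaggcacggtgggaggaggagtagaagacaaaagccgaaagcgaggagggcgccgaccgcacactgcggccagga

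The tissue carried its label: all 11 acinar genes on the list were at the top of the scale, between 19001.6 and 35587.5 signal units, while the median of each array was 62.9 or 63.0. Arrays differed in what else they held. The adipocyte marker mean, the average over 9 tested fat genes of log2 signal less the mean of that gene, ran to 0.66 in HF_HF, to 0.15 in HF_LF, to 0.89 in LF_HF and to 1.75 in LF_LF, where 1 array (LF_LF 1) was the only one past the upper quartile by over 3 times the interquartile range. Of the 9 genes 6 peaked in that array, led by Adipoq (1530.9 units), whereas Lep, Acvr1c and Sncg peaked in others. The 5 listed fat genes below the filter had 53.2 to 112.7 units in it, and Cidea, Fabp4 and Plin1 peaked there but Retn and Trarg1 did not. The same array also had a high myeloid marker mean (1.37), as had HF_HF 5 (1.78), and a high hepatocyte marker mean was seen in LF_HF 1 (3.03). By distance from the median array, 5 arrays stood apart: HF_HF 5, HF_HF 8, HF_LF 5, LF_HF 1 and LF_LF 1. In whole tissue, fewer cells of a type and less RNA per cell cannot be told apart.

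Signals are linear, were quantile normalised by the authors, and include the background, so that low genes show compressed differences. Fads1, Scd1, Elovl5, Acaca and Acly lay above the median of the array on all 40 arrays and Fads2 on 39. Elovl6, Scd2 and Me1 were near it, above in 32, 31 and 26 arrays. Fasn, at 52.5 to 69.5 units and above the median in 12 arrays, did not pass the filter of 20 arrays and was not tested. The second Me1 probe (52.9 to 133.2 units, above in 15) did not pass it either. In the RefSeq annotation the 4 desaturase genes are all on chromosome 19, and Acaca, Fasn and Acly are all on chromosome 11.

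Feeding the HF diet after weaning was accompanied by a higher signal of Fads1. The gene had 416.6 to 885.8 units (median 634) in HF_HF, against 347.0 to 569.3 (median 435.5) in HF_LF, and 8 of 10 HF_HF arrays lay above every HF_LF array. From LF dams it had 600.7 to 916.6 units (median 764) in LF_HF, against 423.5 to 949.8 (median 552) in LF_LF, so that the groups overlapped, although 10 of 10 LF_HF arrays were above the LF_LF median. From HF dams HF_HF 1 (416.6) was the only HF-fed mouse under 539 units. From LF dams the overlap was wider: LF_LF 7 (949.8) was the highest of all 40, and LF_LF 4 (663.6), LF_LF 5 (632.4) and LF_LF 8 (628.8) also lay above the lowest LF_HF array.

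Averaged over dam diets, Fads1 was 0.47 higher on the log2 scale after HF feeding (SE 0.09, 1.39-fold, adjusted p = 0.00087, limma, as for all adjusted p-values below). The difference was 0.55 (SE 0.11, 1.46-fold, adjusted p = 0.0167) from HF dams, and 0.39 (SE 0.12, 1.31-fold) from LF dams, where it missed the threshold (adjusted p = 0.28). The interaction of the diets was 0.16 (SE 0.17, adjusted p = 0.92), so that a difference between the dam diets was not detected. The average passed under all 29 alternatives (0.38 to 0.53). The call from HF dams was lost without the arrays that stood apart (0.45, adjusted p = 0.064), without cage 21 (0.57, adjusted p = 0.067) and without cage 23 (0.53, adjusted p = 0.13).

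**Figure D1:**
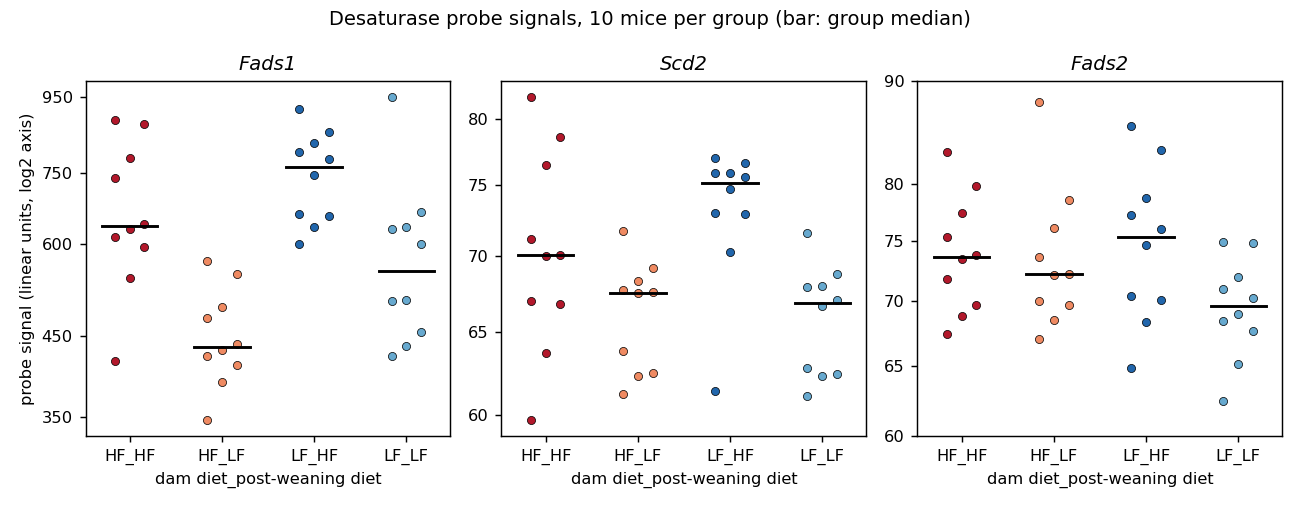
Probe signal (linear units on a log2 axis) of Fads1, Scd2 and Fads2 in each of the 40 mice, by group, with a bar at the group median. Fads1 medians were 634 units in HF_HF and 435.5 in HF_LF, and 764 in LF_HF and 552 in LF_LF, whereas all arrays lie between 59.7 and 81.7 units for Scd2 and between 62.4 and 87.9 for Fads2, with overlapping groups.

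The comparison also held inside cages. In each of the 5 cages with mice of both diets, the mean log2 signal of Fads1 was higher in HF-fed than in LF-fed mice, by 0.11 to 0.63, and in 4 of the 5 every HF-fed mouse was above every LF-fed one. In cage 23, for example, HF-fed mice had 594.5 to 639.9 units and LF-fed mice 389.8 to 423.0. The exception was cage 10, where the single HF-fed mouse had 416.6 units and the 2 LF-fed mice had 347.0 and 431.4. With the cage as a fixed block, the average difference was 0.48 (SE 0.08, adjusted p = 0.0025).

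**Figure D2:**
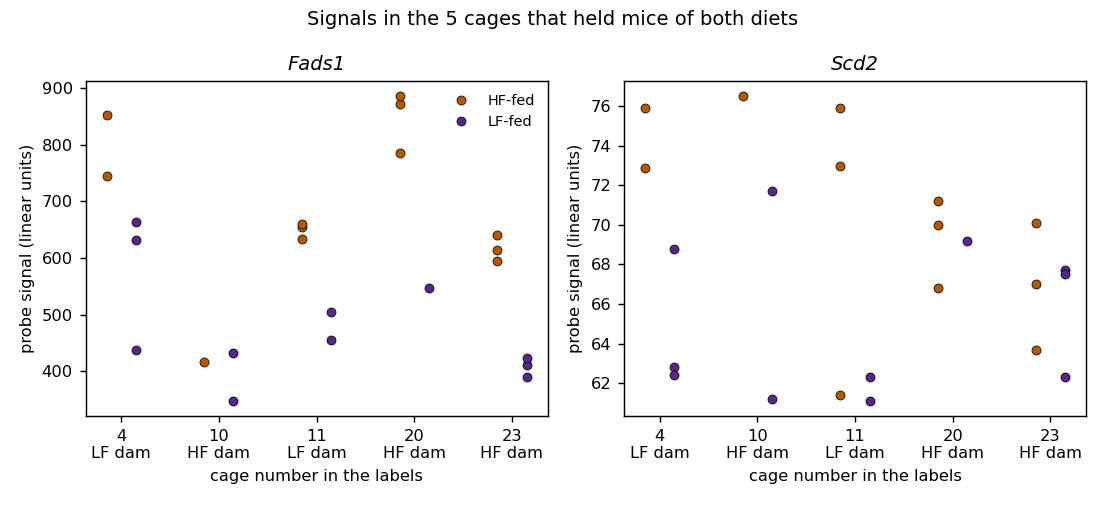
Probe signal (linear units) of Fads1 and Scd2 in the 5 cages that held mice of both post-weaning diets, HF-fed mice left of LF-fed mice in each cage and 1 point per mouse. HF-fed mice were above all LF-fed mice of their cage in 4 of 5 cages for Fads1.

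Scd2, a stearoyl-CoA desaturase known for its expression in brain and in early life, was the other gene that passed. It had 59.7 to 81.7 units (median 70.05) in HF_HF, against 61.2 to 71.7 (median 67.6) in HF_LF, and 61.4 to 77.0 (median 75.2) in LF_HF, against 61.1 to 71.6 (median 66.9) in LF_LF. The shift was in most arrays from LF dams, where 8 of 10 LF_HF arrays lay above every LF_LF array, and in fewer from HF dams, where 3 of 10 did. The average difference was 0.12 (SE 0.03, 1.09-fold, adjusted p = 0.016), with 0.09 (SE 0.05, adjusted p = 0.35) from HF dams and 0.15 (SE 0.04, adjusted p = 0.18) from LF dams. At a signal this close to background the size depends on how background is handled: after subtraction of the 5th percentile of each array the average was 0.25 (adjusted p = 0.021). It was lost with the cage as a fixed block (0.13, adjusted p = 0.15) and without cage 4 (0.11, adjusted p = 0.084). A filter at the upper tercile of each array left Scd2 untested.

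These were the 2 of 9 genes called in the averaged comparison, in which 5.22% of all 12246 probes were called, 2.75% as higher. From HF dams 1 of 9 was called (Fads1), with 2.24% of all probes called and 1.05% as higher, and from LF dams 0 of 9, with 0.0408% of all probes (5 probes, and 1096 at an unadjusted p under 0.05). The median of the 9 average differences was -0.02, against 0.00 for all probes. Fads2, which acts before Elovl5 and Fads1 in the polyunsaturated pathway, had an average difference of 0.06 (SE 0.03, adjusted p = 0.36). Its medians were 73.6 units in HF_HF and 72.2 in HF_LF, and 75.3 in LF_HF and 69.6 in LF_LF, with all arrays between 62.4 and 87.9, so that the groups overlapped.

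The elongases and synthesis enzymes gave no call by post-weaning diet. Elovl6 had the smallest p among them. It had 61.6 to 77.0 units (median 64.7) in HF_HF, against 62.2 to 97.2 (median 68.1) in HF_LF, and 57.9 to 70.9 (median 64.5) in LF_HF, against 63.2 to 242.0 (median 71.2) in LF_LF. All 10 LF_HF arrays were below the LF_LF median, and 8 of 10 HF_HF arrays were below the HF_LF median. The average was -0.20 (SE 0.09, adjusted p = 0.21), of which 1 array held much: without LF_LF 1 it was -0.11 with a smaller error (SE 0.04, adjusted p = 0.068). With the adipocyte mean in the model it was -0.22 (SE 0.07, adjusted p = 0.055), and without the 5 arrays that stood apart -0.12 (SE 0.04, adjusted p = 0.051), which are all above the threshold. With the cage as a fixed block the average was -0.12 (SE 0.13, adjusted p = 0.69).

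Acaca, an acetyl-CoA carboxylase and the committed step of synthesis, had 85.0 to 115.9 units (median 103) in HF_HF, against 78.9 to 179.5 (median 90.4) in HF_LF, and 87.3 to 136.1 (median 97.6) in LF_HF, against 99.1 to 777.5 (median 119) in LF_LF. From LF dams 5 of 10 LF_HF arrays lay below every LF_LF array, and the difference was -0.46 (SE 0.25, adjusted p = 0.64), or -0.18 (SE 0.07, adjusted p = 0.26) without LF_LF 1. From HF dams it was 0.04 (SE 0.11, adjusted p = 0.89). The remaining average differences were -0.02 (SE 0.08) for Acly, -0.06 (SE 0.08) for Elovl5, -0.08 (SE 0.04) for Me1 and 0.11 (SE 0.37) for Scd1, with adjusted p-values from 0.28 to 0.92.

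**Figure D3:**
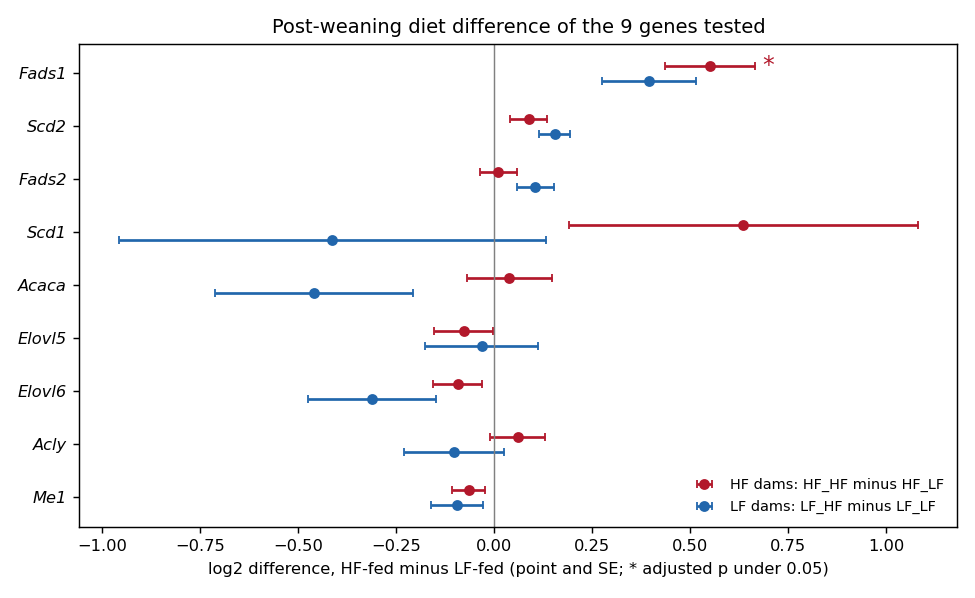
Log2 difference between HF-fed and LF-fed mice (points, with SE as bars) for the 9 genes tested, from HF dams (HF_HF minus HF_LF, red) and LF dams (LF_HF minus LF_LF, blue), 10 mice per group. Fads1 is the only gene with a call within 1 dam diet (0.55 from HF dams, asterisk), and Scd1 has the widest error (SE 0.44 and 0.54).

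Maternal diet gave no call among the 9 genes in any comparison. In LF-fed mice limma called 0 of all 12246 probes (1051 at an unadjusted p under 0.05), in HF-fed mice 0 (761 at an unadjusted p under 0.05), and averaged over feeding 8, or 0.0653%. The regularised test after Cyber-T called 4 probes in LF-fed mice and 0 in HF-fed mice. Its settings were assumed here, so these counts do not stand for the authors' own test. Fads1 had the smallest p of the 9 in the average. HF_LF arrays were lower than LF_LF arrays by 0.33 on the log2 scale (SE 0.12, adjusted p = 0.44), with 9 of 10 below the LF_LF median, and HF_HF arrays were lower than LF_HF arrays by 0.17 (SE 0.11, adjusted p = 0.85), with 7 of 10 below the LF_HF median. The average of -0.25 (SE 0.09, adjusted p = 0.27) did not pass. The post-weaning and maternal comparisons share groups and are not independent. Elovl5 was lower by 0.19 on average (SE 0.08, adjusted p = 0.45). Scd1 was lower by 1.06 in HF_LF than in LF_LF (SE 0.49, adjusted p = 0.56), the largest of the 9 differences in LF-fed mice, and it is taken up below with the fat content of the arrays.

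The interaction of the diets was called for 0 of 12246 probes (676 at an unadjusted p under 0.05) and for 0 of the 9 genes, with values from -0.09 (Fads2, SE 0.07) to 1.05 (Scd1, SE 0.75). Within groups, the slope on fasting glucose was called for 0 of 12246 probes (1343 at an unadjusted p under 0.05) and the slope on the second body weight in the labels for 0 (677 at an unadjusted p under 0.05).

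The 9 genes were then set against the fat content of each array, as a slope of log2 signal on the adipocyte marker mean with 1 mean per group in the model. None of the 10 genes is on the marker list, but earlier results of these data had already placed Scd1 among the genes that go with fat. A gene was taken to follow fat if its positive slope was called over all 40 arrays and also without LF_LF 1. By this rule 3 genes followed fat (Scd1, Acaca and Elovl5), 3 had a call that rested on LF_LF 1 (Elovl6, Acly and Me1), and 3 had no call (Fads1, Fads2 and Scd2). Over 40 arrays 6 of the 9 genes were called, all with a positive slope, while 17.3% of all probes were called and 8.13% with a positive slope. Without LF_LF 1 it was 3 of 9, with 3.94% of all probes called and 3.4% with a positive slope.

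Scd1 moved with fat more steeply than any other of the 9. Its signal was 122.5 to 1361.1 units (median 357) in HF_HF, 128.8 to 1270.1 (median 225) in HF_LF, 133.3 to 2083.5 (median 321) in LF_HF and 143.5 to 7070.7 (median 459) in LF_LF. Each group thus covered a wide range, and the high arrays were mostly those with a high adipocyte mean. LF_LF 1 (7070.7 units), HF_HF 10 (1361.1) and HF_LF 4 (1270.1) were the highest of their group on both measures, and in LF_HF the 2 arrays of highest adipocyte mean, LF_HF 1 (2083.5) and LF_HF 9 (1250.6), were also the 2 highest for Scd1. The slope was 2.57 log2 units per log2 unit of the marker mean (SE 0.15, adjusted p = 1.68e-17), and 2.66 (SE 0.18, adjusted p = 1.28e-14) without LF_LF 1. It was called in all 30 alternatives. The correlation, on values less group means, was r = 0.94 and rho = 0.92 (each permutation p = 1e-05, the smallest that 100000 permutations can give, and 4.5e-05 adjusted over 9 genes). Leaving out LF_LF 1 and LF_HF 9, the arrays whose adipocyte mean was farthest from its median, r was 0.92, and within the groups it was 0.98 in HF_HF, 0.90 in HF_LF, 0.95 in LF_HF and 0.96 in LF_LF.

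Acaca had a slope of 0.80 (SE 0.11, adjusted p = 4.02e-07), which was 0.38 (SE 0.07, adjusted p = 0.00042) without LF_LF 1, so that its size depended on that array although the call was kept. Acaca was not called without LF_LF 1 when the hepatocyte and myeloid means were also in the model (adjusted p = 0.094). Its r was 0.76 (rho 0.64, each permutation p = 1e-05 and 4.5e-05 adjusted), and 0.66 without the 2 farthest arrays. Within groups r was 0.80 in HF_HF, 0.91 in HF_LF, 0.87 in LF_HF and 0.95 in LF_LF.

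Elovl5 had 164.6 to 229.7 units (median 199) in HF_HF, 168.8 to 262.1 (median 207) in HF_LF, 173.2 to 354.8 (median 216) in LF_HF and 180.1 to 483.1 (median 224) in LF_LF, and its 2 highest arrays were LF_LF 1 and LF_HF 1, the array of high hepatocyte mean. The slope was 0.45 (SE 0.07, adjusted p = 2.05e-06), and 0.33 (SE 0.07, adjusted p = 0.0043) without LF_LF 1. The correlation was r = 0.75 (permutation p = 3e-05, adjusted 9e-05) and rho = 0.61 (permutation p = 6e-05, adjusted 0.00018), with r = 0.62 without the 2 farthest arrays. Elovl5 was the least firm of the 3, since its slope was not called without the 5 arrays that stood apart (0.23, adjusted p = 0.24) or with the myeloid mean in the model (0.41, adjusted p = 0.076). Scd1 and Acaca passed in both and were the 2 of 9 called there, with 1.88% of all probes called without those arrays (1.81% with a positive slope) and 0.743% with the myeloid mean (0.621% with a positive slope). Nor was the slope of Elovl5 called with the hepatocyte and myeloid means both in the model, either with or without LF_LF 1.

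Elovl6, Acly and Me1 owed their call to LF_LF 1, where each had its highest value of the 40 arrays (242.0, 1323.4 and 101.7 units), as Scd1, Acaca and Elovl5 also had. On the other 39 arrays Elovl6 reached 97.2 units, Acly 739.7 and Me1 80.8. The slope of Elovl6 was 0.43 (SE 0.08, adjusted p = 0.00014) with the array and 0.11 (SE 0.05, adjusted p = 0.32) without it. That of Acly was 0.30 (SE 0.07, adjusted p = 0.0022) and 0.08 (SE 0.07, adjusted p = 0.63), and that of Me1 0.18 (SE 0.04, adjusted p = 0.00034) and 0.08 (SE 0.04, adjusted p = 0.26). The second Me1 probe, below the filter, had 133.2 units in LF_LF 1 and at most 80.3 elsewhere. Fasn, also below the filter, did not peak there: it had 66.2 units in LF_LF 1 and 69.5 in LF_LF 10. Without the 2 farthest arrays, r was 0.33 for Elovl6 (permutation p = 0.014, adjusted 0.025), 0.38 for Me1 (p = 0.0090, adjusted 0.020, permutation test) and 0.13 for Acly (permutation p = 0.45). In the groups other than LF_LF, r for Me1 was 0.54 in HF_HF, 0.66 in HF_LF and 0.58 in LF_HF. In the same order it was -0.02, 0.89 and 0.61 for Elovl6 and -0.13, 0.37 and 0.49 for Acly. Elovl5, classed as following fat, had 0.41, 0.55 and 0.72. In LF_LF 1 the myeloid, lymphocyte and adipocyte means were high together, and their separate parts in the values of that array were not tested beyond the models with covariates.

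Fads1, Fads2 and Scd2 had slopes of 0.01 (SE 0.10, adjusted p = 0.94), 0.01 (SE 0.04, adjusted p = 0.84) and -0.04 (SE 0.04, adjusted p = 0.49). Without LF_LF 1 they were 0.16 (SE 0.12), 0.03 (SE 0.05) and -0.08 (SE 0.04), with adjusted p-values of 0.55, 0.87 and 0.42. In LF_LF 1 itself Fads1 had 423.5 units, the lowest of its group. A missed call does not show that the slope is absent.

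**Figure D4:**
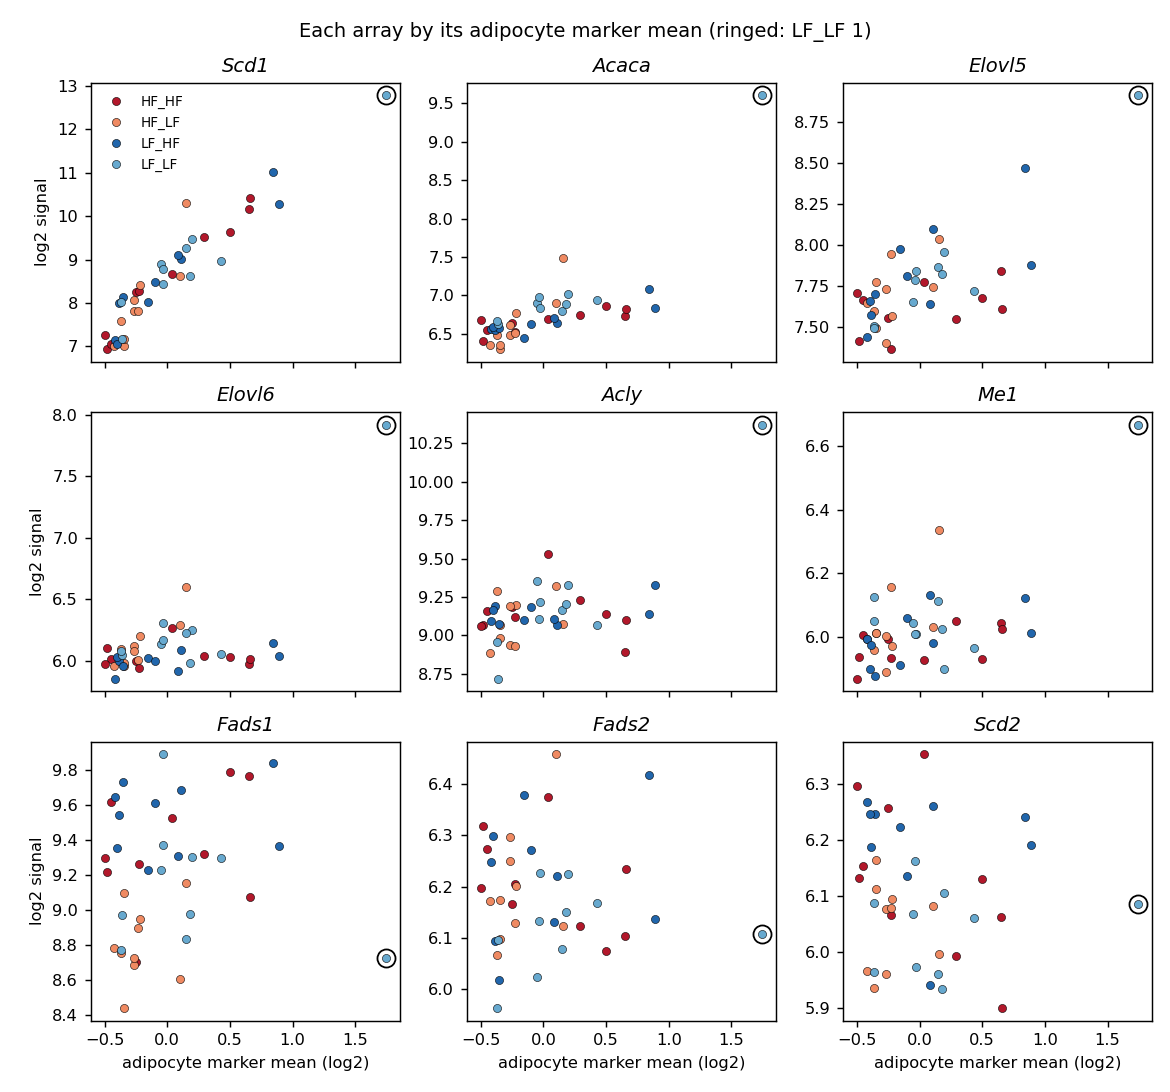
Log2 signal of the 9 genes tested against the adipocyte marker mean (log2) of the same array, 1 point per array, coloured by group, with LF_LF 1 ringed. Scd1 rises along the whole axis (r = 0.94), Elovl6, Acly and Me1 are raised mainly in the ringed array, and Fads1, Fads2 and Scd2 show no slope that passed the test.

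**Figure D5:**
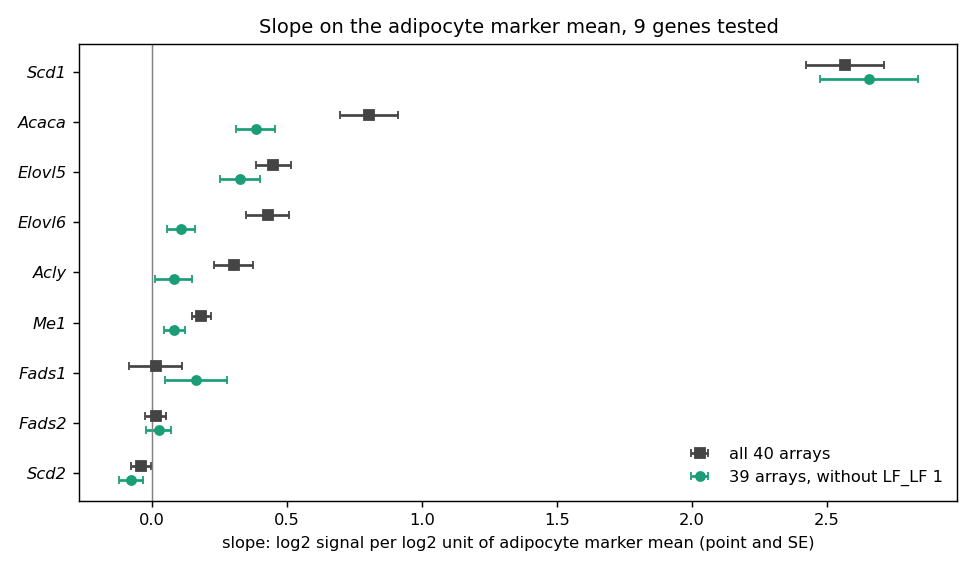
Slope of log2 signal on the adipocyte marker mean (points, with SE as bars) over all 40 arrays (grey squares) and over 39 arrays without LF_LF 1 (green circles). The slope of Scd1 is 2.57 and 2.66, that of Acaca 0.80 and 0.38, and that of Elovl6 0.43 and 0.11.

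The diet comparisons of these genes were also fitted with the adipocyte mean in the model. Whether the share of fat tissue or the level of these genes in it differed was not tested. The adipocyte mean was 0.02 ± 0.47 in HF_HF and -0.22 ± 0.20 in HF_LF, and 0.01 ± 0.49 in LF_HF and 0.19 ± 0.60 in LF_LF (SD, n = 10 each), or 0.01 ± 0.26 in LF_LF without LF_LF 1. With this mean in the model, the difference of Scd1 between HF_LF and LF_LF was -0.01 (SE 0.22) in place of -1.06 (SE 0.49), and the average post-weaning difference was 0.02 (SE 0.13) in place of 0.11 (SE 0.37). For Acaca, HF_LF minus LF_LF was 0.08 (SE 0.10) in place of -0.50 (SE 0.26). For Fads1 the average post-weaning difference was 0.47 (SE 0.09, adjusted p = 0.00068) with the adipocyte mean in the model and 0.45 (SE 0.09, adjusted p = 0.00073) without LF_LF 1. Scd2 likewise stayed at 0.12 in both (adjusted p = 0.012 and 0.011).

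Liver genes were a second source of spread between arrays, led by LF_HF 1, where Apoa2 had 3633.5 units against a median of 142.0, although the list also holds Cyp2e1, which was highest in LF_LF 1. Of the listed liver genes below the filter, Apoh and Cyp3a11 peaked in LF_HF 1, at 72.3 and 73.3 units. Alb, Cyp2c29, Fabp1 and Fgb peaked in other arrays, at 58.2 to 64.1 units. None of the 9 genes had a called slope on the hepatocyte mean, with 0.947% of all probes called. Scd1 had 0.75 (SE 0.26, adjusted p = 0.46) and Elovl5 had 0.18 (SE 0.06, adjusted p = 0.30). Both were called without LF_LF 1, a change given with the dependence on processing.

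The genes most like each member were found by Pearson r on values less group means, over all 8858 tested genes, as a description. Scd1 was most like Adipoq (0.96), Car3 (0.94) and Cidec (0.93), all of them on the fat marker list, and the same 3 led without LF_LF 1 (0.94, 0.92 and 0.93). Fads1 was most like Fdps, the farnesyl diphosphate synthase of the cholesterol pathway (0.69), followed by Anapc5 (0.61) and Clic6 (0.58). Without LF_LF 1 it was most like Tkt, the transketolase of the pentose phosphate pathway (0.72), Fdps (0.67) and Tecr, the enoyl reductase of fatty acid elongation (0.62).

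Acaca was most like 1700037H04Rik, Mmd and Arxes2 (0.91 each), and without LF_LF 1 like Dgat2, which makes triglyceride (0.78), Mmd (0.74) and Acss2, which makes acetyl-CoA from acetate (0.72). Elovl6 was most like Satb1, Ccl21c and Acss2 (0.90, 0.89 and 0.89), and Acss2 still led without LF_LF 1 (0.69). Elovl5 was most like Pygl, Cdo1 and Cyp2e1 (0.87, 0.86 and 0.85), and Cyp2e1 led without LF_LF 1 (0.78). Between members, Acaca and Elovl6 had r = 0.95 over 40 arrays and 0.72 without LF_LF 1, and Acaca and Scd1 had 0.77 and 0.79. The highest values for the other genes over 40 arrays were 0.62 for Fads2 (Mtx1) and 0.85 for Acly (Ccl21c). They were 0.81 for Me1 (Nfkbid) and 0.57 for Scd2 (Skiv2l). Without LF_LF 1 they were 0.63 for Fads2 (Abcd3), 0.65 for Acly (Dolk), 0.54 for Me1 (Reg3g) and 0.59 for Scd2 (Skiv2l). All points share the array, so that tissue content and signal scale enter every such value.

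The regulators of these genes showed little difference by diet. Srebf1 was near the array median at 54.2 to 73.8 units in all groups, above it in 16 arrays, and did not pass the filter. The averaged post-weaning differences were 0.06 for Srebf2 (SE 0.03, adjusted p = 0.28), 0.01 for Mlxipl (SE 0.05, adjusted p = 0.91), 0.15 for Insig1 (SE 0.13, adjusted p = 0.61) and -0.19 for Thrsp (SE 0.13, adjusted p = 0.46). Of 16 tested regulators 1 was called, in a comparison that called 5.22% of all probes: Mid1ip1, whose protein promotes the assembly of active acetyl-CoA carboxylase, was higher by 0.21 (SE 0.05, adjusted p = 0.016), with 132.8 to 180.0 units (median 151) in HF_HF, against 114.6 to 170.0 (median 130) in HF_LF, and 142.7 to 198.4 (median 160.4) in LF_HF, against 112.8 to 185.2 (median 132) in LF_LF.

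Among 15 other elongation and desaturation genes 1 was called in the averaged comparison, again beside 5.22% of all probes: Tecr, higher by 0.21 (SE 0.06, adjusted p = 0.024), with 270.0 to 383.5 units (median 325) in HF_HF, against 232.2 to 309.4 (median 283) in HF_LF, and 330.7 to 369.9 (median 353) in LF_HF, against 205.4 to 435.6 (median 298) in LF_LF. Of 6 mitochondrial fatty acid synthesis genes 1 was called, Acsf3, the malonyl-CoA synthetase of mitochondria, higher by 0.14 on average (SE 0.03, adjusted p = 0.0030) and by 0.21 from HF dams (SE 0.04, adjusted p = 0.013). It had 75.2 to 90.9 units in HF_HF, against 67.2 to 77.7 in HF_LF, and 72.1 to 95.4 in LF_HF, against 76.6 to 90.3 in LF_LF. The groups overlapped widely from LF dams, where the difference was 0.08 (SE 0.04, adjusted p = 0.67).

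Of 9 genes of acetyl-CoA and NADPH supply, 18 of acyl-CoA activation and glycerolipid synthesis, and 14 of cholesterol synthesis, 0 were called in that comparison. Nearest were Idh1 (-0.08, adjusted p = 0.31), Agpat1 (0.06, adjusted p = 0.27) and Lss (0.09, adjusted p = 0.070). The median differences of the 3 lists were -0.01, -0.01 and 0.03, against 0.00 for all probes. Above 0 were 13 of the 14 cholesterol genes and 49.5% of all probes. The cholesterol genes share arrays, and a shift of that list as a whole was not tested. Averaged over feeding, maternal diet gave 0 calls in all 6 lists, with medians from -0.06 to 0.01.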

How the data were processed

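The authors deposited linear signal intensity for 40 arrays, exported with BeadStudio (version not given in the sources used here) and quantile normalised over all arrays, without background subtraction. Intensities were taken to log2. A probe was tested if above the median of its array in at least 20 of 40 arrays, which kept 12246 probes (8858 genes), and a gene was represented by its brightest tested probe. The platform table gave 23978 probes 1 symbol and 1719 none. Groups and slopes were fitted with limma (3.58.1, R 4.3.3), as moderated two-sided tests that let the variance depend on intensity. P-values were adjusted by the Benjamini-Hochberg method over all tested probes and called under 0.05, on 20 arrays per pair of groups and on 40 for averages, interaction and slopes. Correlations used permutation within groups (100000 resamples, scipy 1.17.1). The fits were run on simulated data with independent normal noise for each probe. That noise held no cage structure, no correlation between probes and no outlying array, so these features were not tested. Named were all 10 genes, the genes called in each list or up to 2 with the smallest p, 5 regulators, and up to 3 genes most like each member. The members and lists were chosen with earlier results of these data known. Alternatives changed the test (a Cyber-T form with assumed settings among them), scaling, background, filter, probe, arrays, covariates and cage. The number of arrays limits the precision.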

Additional observations from a re-analysis of the deposited data

Results flagged for a closer look

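In 48 sets of 10 values (the 9 genes tested and 3 marker means, in 4 groups), 18 had an end value far from its neighbour relative to the range of its group, which chance gives in about 1 of 20 sets. The sets share arrays, and 8 of the 18 came from LF_LF 1, so the count cannot be judged against that rate. The value given for each is the gap to the nearest array as a share of the group's range of log2 values, and no explanation was weighed.

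LF_LF 1 was the highest of LF_LF in 8 of these: Scd1 (0.591), Elovl5 (0.675), Elovl6 (0.831), Acaca (0.871), Acly (0.616), Me1 (0.707), the adipocyte mean (0.623) and the myeloid mean (0.754). HF_LF 4 was the highest of HF_LF for Scd1 (0.509), Elovl6 (0.49) and Acaca (0.499), which also peaked in LF_LF 1. HF_HF 8 was the highest of HF_HF for Elovl6 (0.511) and Acly (0.474), and LF_HF 9 was the highest of LF_HF for Acly (0.526).

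Scd2 was lowest in LF_HF 10 (0.598), at 61.4 units against 75.2 for the group median, the 1 low value among the 18. The hepatocyte mean was highest in LF_HF 1 (0.57), and the myeloid mean in HF_HF 5 (0.526) and in HF_LF 5 (0.477). Fads1 and Fads2 had none in any group.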

How the results depend on the processing

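By replicate number, no paired analysis was possible because the labels number no replicates and the numbers here only name arrays in accession order. Cages, which the labels do give, were compared within and fitted as a block. The count of genes called after weaning from HF dams was 1, and it was 0 without the arrays that stood apart; leaving out each cage gave 0 to 1, with 0 without cage 21 or cage 23. For the averaged post-weaning comparison it was 2, and 1 (Fads1) with the stricter filter and with the cage as a fixed block; leaving out each cage gave 1 to 2. For the adipocyte slope it was 6. It was 3 without LF_LF 1 and with hepatocyte and myeloid means as covariates, 2 without the arrays that stood apart and with the myeloid mean alone, and leaving out each cage gave 3 to 6, the 3 without cage 8, that of LF_LF 1. Chosen after seeing the data, leaving out the 2 arrays of highest myeloid mean gave 3, and leaving out LF_LF 1 with both covariates gave 1 (Scd1). For the hepatocyte slope it was 0, and 2 (Scd1 and Elovl5) with array weights, without LF_LF 1 and without the 2 myeloid arrays, 1 (Elovl5) with the cage as a fixed block, and 0 to 1 when each cage was left out. Other counts, among them those by maternal diet, stayed within 1.5 times, and no called value changed sign. The share of all probes called is given above for the adipocyte slope in some of these altered fits. Elsewhere, and for every altered hepatocyte slope, the counts have no such share beside them. The causes were not tested.

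Signals near the array median limit Scd2, Elovl6, Me1, Fads2 and Fasn, whose differences are compressed by background that was not removed. Fads1 and Scd2 were each read by 1 probe.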

Other observations

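Genes around fatty acid synthesis also had slopes on the adipocyte marker mean, here over all 40 arrays with LF_LF 1 among them. The background is 17.3% of all probes called on this slope, 8.13% with a positive slope and the rest with a negative one. Of 18 genes of acyl-CoA activation and glycerolipid synthesis, 7 had a called positive slope and 0 a negative one, led by Dgat2, which makes triglyceride (1.21, SE 0.10, adjusted p = 1.27e-12), and Agpat2, which makes phosphatidic acid in fat cells (0.38, SE 0.07, adjusted p = 4.79e-05). Of 9 genes of acetyl-CoA and NADPH supply, 4 were called with a positive slope: Acss2 (0.59, SE 0.09), Tkt (0.38, SE 0.06), the citrate carrier Slc25a1 (0.28, SE 0.06) and Cs (0.11, SE 0.03). Of the regulators, Thrsp (0.77, SE 0.08, adjusted p = 5.27e-09) and Mlxipl (0.15, SE 0.05, adjusted p = 0.031) were called.

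Of 15 other elongation and desaturation genes, Hsd17b12 (0.28, SE 0.05), Cyb5r3 (0.19, SE 0.05) and Tecr (0.21, SE 0.06) had called positive slopes and the dehydratase Hacd1 a negative one (-0.33, SE 0.07, adjusted p = 0.00039). Of 14 cholesterol genes, 1 was called (Ebp, 0.13, SE 0.04, adjusted p = 0.031). Mecr, of 6 mitochondrial synthesis genes, had a called negative slope (-0.14, SE 0.05, adjusted p = 0.031). The median slope was 0.015 for the glycerolipid list, 0.11 for the supply list and 0.03 for the cholesterol list, against -0.02 for all probes.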
